A study of Homo sapiens with 16 samples.

Results

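The 6 genes described here, CXCL1, CXCL2, CXCL3, CXCL5, CXCL6 and CXCL8, encode the neutrophil-attracting CXC chemokines, and they were taken by gene symbol from a count table of 59428 genes, of which 29329 had a count in at least 1 of 16 RNA libraries. The libraries come from 2 serous ovarian carcinoma cell lines, OVCAR3 with intact BRCA1 and UWB1.289 with a BRCA1 mutation, kept for 96 h with the PARP inhibitor olaparib dissolved in DMSO or with DMSO alone. OVCAR3 received olaparib at 7.5 µM and UWB1.289 at 3.5 µM, which were the IC50 values of the lines, and each of the 4 groups of line and treatment has 4 replicates. OVCAR3 was grown in RPMI1640 with serum and bovine insulin and UWB1.289 in a mixture of MEGM and RPMI1640 with less serum, so the effects of line, BRCA1 status, olaparib dose and culture medium cannot be told apart, and each line stands alone for its BRCA1 status. The labels do not say whether replicates were separate cultures, so p-values measure the spread between these libraries, which may be technical.

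Chemokines are small secreted proteins that guide leukocytes along a gradient. The members with the residues glutamate, leucine and arginine before their first cysteines (the ELR motif) bind CXCR2 and, for CXCL8 and CXCL6, also CXCR1, and they draw neutrophils to sites of injury. Epithelial and tumor cells make little of them at rest and raise them on stimulation by interleukin-1, tumor necrosis factor or interleukin-17, through NF-kB and AP-1 at the promoter and through the stability of the transcript, whose 3′ UTR carries AU-rich elements. CXCL8, also called interleukin-8, is the best known of them, and in ovarian carcinoma these chemokines are studied for their part in neutrophil recruitment and in the growth of blood vessels.

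The 6 genes lie in 1 cluster on chromosome 4, which in the GENCODE annotation of GRCh38 runs over 358.7 kb from 73740519 to 74099196. CXCL8 at 73740519 to 73743716, CXCL6 at 73836640 to 73849064 and CXCL1 at 73869393 to 73871308 are on the plus strand. CXCL5 at 73995642 to 73998677, CXCL3 at 74036589 to 74038807 and CXCL2 at 74097040 to 74099196 are on the minus strand. CXCL1, CXCL2 and CXCL3 are near copies, with 90.7% to 94.4% identity between their coding sequences, and CXCL5 and CXCL6 share 87.5%. The other pairs lie between 48.6% and 61.5%. The libraries read the 3′ ends of transcripts, and in the last 500 bases of the transcripts 46 of 451 windows of 50 bases (10.2%) are the same in CXCL1 and CXCL2. Reads longer than such a stretch can still be told apart, and the share of reads common to both genes was not measured. No such window is shared by CXCL3, CXCL5, CXCL6 or CXCL8. CXCL5 overlaps a lncRNA on the opposite strand and CXCL6 a pseudogene, PPBPP1, on the same strand, and the use of strand in counting is not given in the sources used here. PPBPP1 had 0 counts.

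The promoters are shown because all 6 hold the same kB sequence, the kind of site that NF-kB binds, at nearly the same place. Each line gives the 100 bases before the RefSeq transcription start in assembly GRCh38.p14, written 5′ to 3′ on the strand of the gene, with the match to GGAATTTCC in capitals. CXCL1 is chr4:73869293-73869392, CXCL6 chr4:73836578-73836677 and CXCL8 chr4:73740469-73740568 on the plus strand, and CXCL2 is chr4:74099196-74099295, CXCL3 chr4:74038690-74038789 and CXCL5 chr4:73998678-73998777 on the minus strand.
CXCL1: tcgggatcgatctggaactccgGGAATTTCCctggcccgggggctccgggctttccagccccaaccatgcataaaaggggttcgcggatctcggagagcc
CXCL2: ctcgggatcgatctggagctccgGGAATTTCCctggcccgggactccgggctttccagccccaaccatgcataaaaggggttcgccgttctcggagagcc
CXCL3: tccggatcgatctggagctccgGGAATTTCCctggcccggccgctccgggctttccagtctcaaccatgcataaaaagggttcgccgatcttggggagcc
CXCL5: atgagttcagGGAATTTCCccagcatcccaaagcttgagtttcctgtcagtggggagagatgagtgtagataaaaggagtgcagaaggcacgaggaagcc
CXCL6: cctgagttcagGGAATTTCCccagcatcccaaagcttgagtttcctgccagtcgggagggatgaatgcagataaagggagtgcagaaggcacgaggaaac
CXCL8: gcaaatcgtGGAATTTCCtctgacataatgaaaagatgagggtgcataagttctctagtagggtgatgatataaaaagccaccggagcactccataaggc

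The match begins 77 bases before the start in CXCL2, 78 in CXCL1 and CXCL3, 89 in CXCL6, 90 in CXCL5 and 91 in CXCL8. In windows from 250 bases before to 50 bases after the start, searched on both strands, GGAATTTCC was found in 162 of 35116 RefSeq promoters (0.46%), those of the 6 chemokines included. The looser form GGANNTTCC, of which GGAATTTCC is 1 case, was found in 4.56% of promoters and in the chemokines at the same places. Of the other motifs searched, TGACTCA, the AP-1 site, was found in 4.95% of promoters and TGANTCA, which includes it, in 7.71%. Among the 6 chemokines both were found in CXCL8 alone, as 1 match that begins 137 bases before the start. TATAAA, 1 form of the TATA box, was found in 11.53% of promoters and among the chemokines in CXCL8 alone, 31 bases before the start. Near that place the windows of CXCL1, CXCL2 and CXCL3 hold cataaa and those of CXCL5 and CXCL6 gataaa. TTGCNNNAA, the 1 pattern searched for C/EBP, was found in 9.21% of promoters and in none of the chemokines. Other forms were not searched, so these results do not show that TATA boxes or C/EBP sites are absent. Promoter identity was 82.5% between CXCL1 and CXCL3 and 83.1% between CXCL5 and CXCL6, so these windows are alike beyond the kB match. The matches are letters in a window, and no binding was measured. The 3′ UTRs are also rich in ATTTA, the core of the AU-rich element. They hold between 0.536 (CXCL6) and 1.397 (CXCL2) copies per 100 bases, against a median of 0.177 over 16984 genes, and between 93.05% and 99.81% of those genes have fewer.

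Total counts per library lay between 5599571 and 7730228. The epithelial markers EPCAM, KRT8, KRT18, KRT19, PAX8, MUC16 and MSLN were present in all groups, and WT1 had 0 counts in UWB1.289 with DMSO. Of the 9 leukocyte and neutrophil markers examined, FCGR3B, MPO and ELANE had 0 counts in every library. ITGAM had 1 count over the UWB1.289 DMSO libraries, 4 over the UWB1.289 olaparib libraries and 0 in OVCAR3. CSF3R had 1 count over the olaparib libraries of each line and 0 with DMSO. PTPRC, CD14, S100A8 and S100A9 were present in at least 1 line, with values given beside the olaparib effects. In bulk RNA fewer cells of a type and less RNA per cell cannot be told apart. Levels are given as raw counts and as CPM, the count scaled by the TMM-normalized size of its library, and log2 CPM carries a prior count of 2. A gene was called differentially expressed at an edgeR adjusted p below 0.1, a change beyond 2-fold and a mean of more than 10 normalized counts across the libraries compared.

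CXCL8 had the largest olaparib effect of the 5 members tested in OVCAR3. It had 4, 10, 11 and 5 counts in DMSO replicates 1 to 4 and 179, 130, 166 and 127 with olaparib. Every olaparib library lay far above every DMSO library. The level went from 1.18 ± 0.570 to 22.2 ± 4.47 CPM (SD, n = 4), a log2 fold change of 4.23 ± 0.26 (SE) with an edgeR adjusted p of 4.64e-10, and by size CXCL8 was rank 5 of the 13031 genes tested. In UWB1.289 CXCL8 was higher with DMSO than in OVCAR3, at 244, 209, 153 and 285 counts. Olaparib brought it to 487, 549, 447 and 547 counts, again without overlap of the groups. The level went from 33.4 ± 6.10 to 83.2 ± 10.8 CPM (SD, n = 4), with a log2 fold change of 1.32 ± 0.13 (SE) and an edgeR adjusted p of 9.86e-08.

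CXCL1, first described as a growth factor of melanoma cells, had 88, 99, 80 and 77 counts in OVCAR3 with DMSO and 1266, 993, 974 and 832 with olaparib. The highest DMSO library had 17.3 CPM and the lowest olaparib library 114 CPM. The log2 fold change was 3.48 ± 0.16 (SE) with an edgeR adjusted p of 3.52e-11, 11.2-fold. In UWB1.289 the counts were 326, 299, 222 and 349 with DMSO and 752, 1078, 763 and 919 with olaparib. These groups did not overlap either, and the change was smaller, at a log2 fold change of 1.68 ± 0.13 (SE), 3.21-fold, with an edgeR adjusted p of 4.53e-09.

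CXCL2 and CXCL3, its near copies, were low with DMSO in both lines. CXCL2 had 7, 11, 15 and 11 counts in OVCAR3 with DMSO and 140, 86, 120 and 54 after olaparib, with a log2 fold change of 3.11 ± 0.32 (SE) with an edgeR adjusted p of 4.96e-07. In UWB1.289 it had 10, 2, 0 and 9 counts with DMSO, so that 1 library held none, and 18, 38, 24 and 23 with olaparib. The log2 fold change there was 2.41 ± 0.49 (SE) with an edgeR adjusted p of 0.00238, the largest SE of the 5 members tested in that line. CXCL3 had 3, 9, 18 and 5 counts in OVCAR3 with DMSO and 87, 56, 53 and 72 with olaparib. It had 9, 11, 9 and 6 counts in UWB1.289 with DMSO and 65, 68, 39 and 45 with olaparib. All olaparib libraries of a line lay above all its DMSO libraries for both genes. The log2 fold change of CXCL3 was 2.85 ± 0.34 (SE) in OVCAR3, with an edgeR adjusted p of 4.09e-06, and 2.74 ± 0.31 (SE) in UWB1.289, with an edgeR adjusted p of 1.79e-06.

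CXCL5 and CXCL6, a second pair of close relatives, were each scarce in 1 line. CXCL5 had 0, 0, 0 and 2 counts in OVCAR3 with DMSO and 7, 4, 11 and 4 with olaparib, too few to enter the fit. Set against a floor of 3 counts per library, the mean of the olaparib libraries was at least 2.03-fold higher, and a two-sided exact permutation test on log2 CPM gave p = 0.0286, the smallest that 4 against 4 libraries allow. In UWB1.289 CXCL5 had 76, 89, 76 and 101 counts with DMSO and 381, 252, 252 and 325 with olaparib, without overlap, for a log2 fold change of 1.94 ± 0.14 (SE) and an edgeR adjusted p of 1.22e-09. CXCL6 was the reverse, scarce in UWB1.289. It had 4, 1, 5 and 1 counts in OVCAR3 with DMSO and 35, 21, 27 and 26 after olaparib, with a log2 fold change of 3.18 ± 0.44 (SE) with an edgeR adjusted p of 2.27e-05. In UWB1.289 it had 0 counts in every DMSO library and 0, 1, 1 and 1 with olaparib, which allows a level of up to 0.456 CPM with DMSO at 3 counts per library and no fold change (exact permutation p = 0.143).

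**Figure D1:**
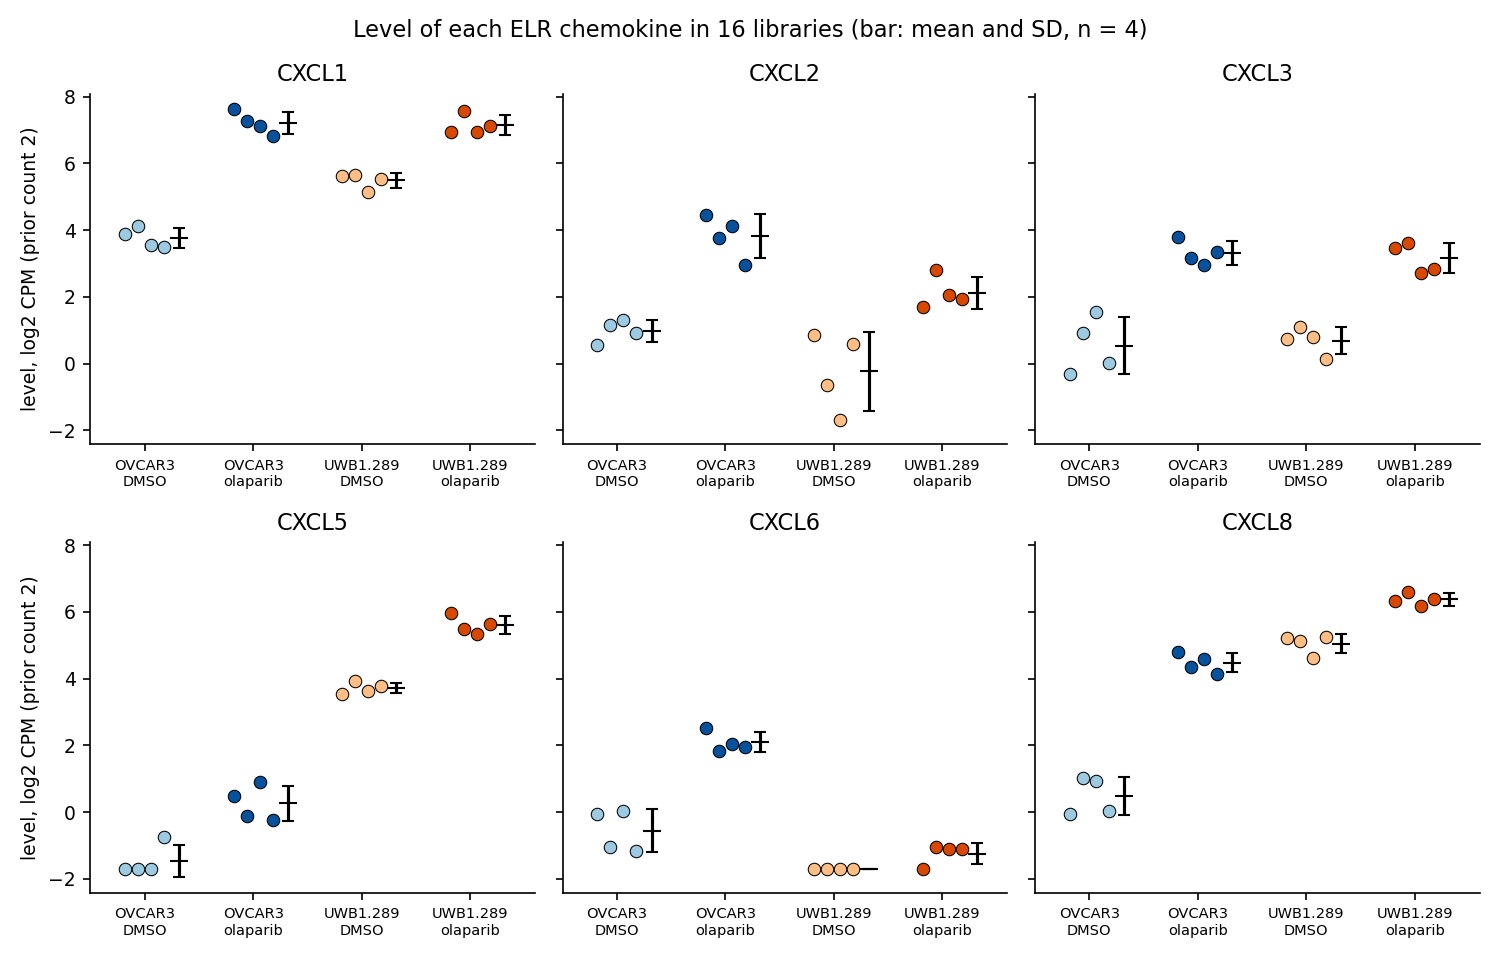
Level of each of the 6 chemokines, as log2 CPM with a prior count of 2, in the 16 libraries by line and treatment, with 1 point per library and the mean and SD of 4 beside them. The olaparib points lie above the DMSO points of their line in every panel but that of CXCL6 in UWB1.289, where both groups sit at the bottom.

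In OVCAR3 the 5 members that entered the fit were called higher, where 2.9% of the 13031 genes tested were called higher and 2.33% lower. All 5 had every olaparib library above every DMSO library, as had 12.4% of the genes tested. In UWB1.289 the 5 members in the fit were called higher too, against 1.93% of 12748 genes called higher and 0.282% called lower, and again no olaparib library overlapped with DMSO, as for 7.7% of genes. The filter on low counts asked for 1.495 CPM in 4 libraries of OVCAR3 and 1.597 CPM in 4 of UWB1.289. CXCL2, CXCL3, CXCL6 and CXCL8 in OVCAR3 and CXCL2 and CXCL3 in UWB1.289 met it in all 4 olaparib libraries and not in all 4 DMSO libraries, so these counts of members are a description. Without that filter the same members were called in each line, and CXCL5 in OVCAR3 had an edgeR adjusted p of 0.00914 at an average of 3.39 counts, below the minimum of 10. The summed level of the 6 members went from 18.3 ± 3.42 to 203 ± 46.95 CPM in OVCAR3 and from 93.4 ± 13.5 to 290.4 ± 45.2 CPM in UWB1.289 (SD, n = 4).

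**Figure D2:**
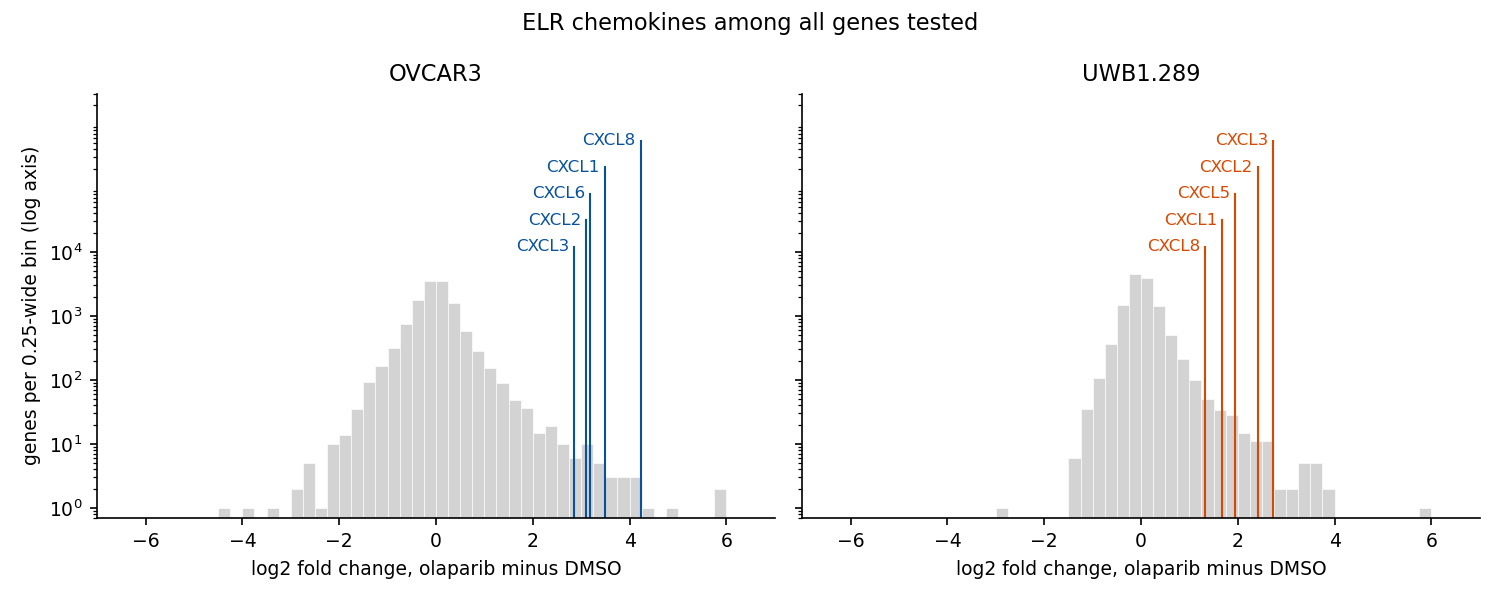
Number of genes tested per bin of log2 fold change (olaparib minus DMSO, bins 0.25 wide, log axis), in OVCAR3 and UWB1.289, with a vertical line at each chemokine that entered the fit. In OVCAR3 the 5 lines lie from 2.85 to 4.23 and in UWB1.289 from 1.32 to 2.74, and CXCL8 is the rightmost line in OVCAR3 and the leftmost in UWB1.289.

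Other measures moved beside these changes. The summed level of 8 epithelial markers was 4386 to 4758 CPM in OVCAR3 with DMSO and 2573 to 2925 CPM with olaparib, and 6717 to 7212 and 5260 to 6370 CPM in UWB1.289. The summed level of the 9 leukocyte and neutrophil markers was 3.14 to 5.44 CPM in OVCAR3 with DMSO and 20.1 to 30.4 CPM with olaparib, and 9.88 to 12.3 and 17.0 to 20.6 CPM in UWB1.289. In OVCAR3 S100A8, with a mean of 0.728 CPM with DMSO and 7.27 CPM with olaparib, and S100A9, with 2.49 and 17.6 CPM, made up most of that difference, while PTPRC, the pan-leukocyte marker, had 6 counts over the 4 DMSO libraries and 2 over the olaparib libraries and CD14, a monocyte marker, 19 and 19. In UWB1.289 PTPRC had 162 counts over the DMSO libraries and 195 over the olaparib libraries, means of 6.13 and 7.87 CPM, and CD14 had 83 and 186, means of 3.16 and 7.69 CPM. These markers made up most of the sum in UWB1.289, where S100A9 had 49 and 64 counts and S100A8 none. The 5 fibroblast markers summed to 22.2 to 30.6 and 30.6 to 39.3 CPM in OVCAR3 and to 43.8 to 60.8 and 25.2 to 31.6 CPM in UWB1.289, with LUM at 0 throughout, and the 3 endothelial markers to at most 10.03 CPM in any library. The part of these markers in the chemokine results was not tested.

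The order of the olaparib effects differed between the lines, and the difference of each effect was tested over all 16 libraries as an interaction. CXCL8 rose by less in UWB1.289, with a difference of −2.91 ± 0.31 (SE) on the log2 scale and an edgeR adjusted p of 1.25e-07. CXCL1 did as well, with a difference of −1.80 ± 0.23 (SE) and an edgeR adjusted p of 2.99e-06. These 2 were called, where 1.66% of 14243 genes were called with a lower and 2.0% with a higher effect in UWB1.289. For CXCL3 the difference was −0.11 ± 0.53 (SE), with an approximate 95% interval from −1.16 to 0.94 and an edgeR adjusted p of 0.955, and for CXCL2 it was −0.70 ± 0.69 (SE), with an interval from −2.05 to 0.64 and an edgeR adjusted p of 0.627. Both intervals include an effect more than 2-fold smaller in UWB1.289. CXCL5 gave −1.39 ± 0.81 (SE) with an edgeR adjusted p of 0.339, a value that rests on the 2 counts of OVCAR3 DMSO replicate 4. Without that library it was −3.73 with an edgeR adjusted p of 0.0916. CXCL6, with an average of 7.42 counts and both UWB1.289 groups at the floor, gave no usable difference.

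**Figure D3:**
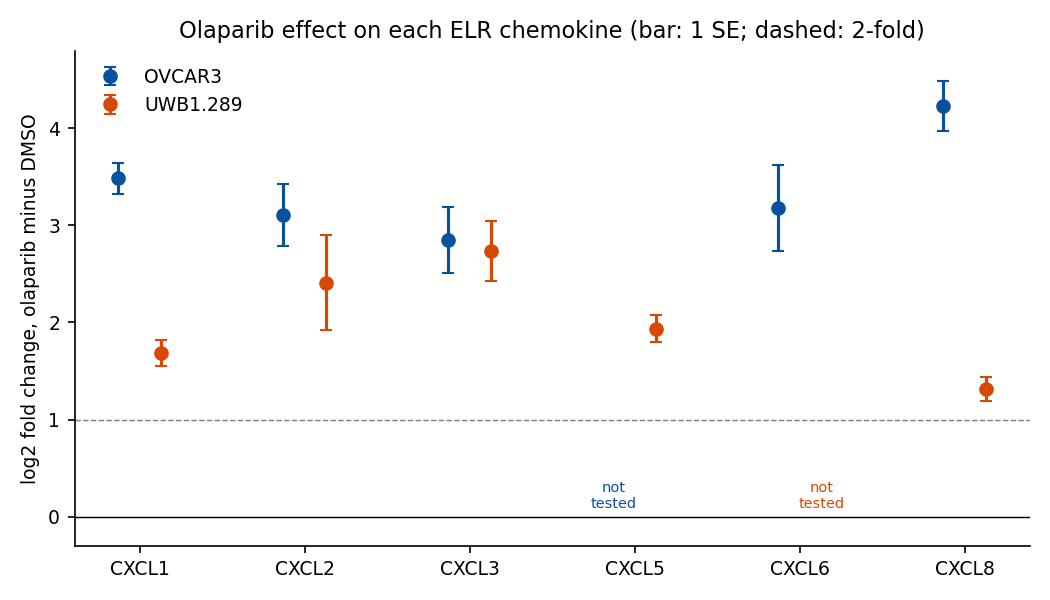
Log2 fold change (olaparib minus DMSO) of each chemokine in OVCAR3 and UWB1.289, as points with bars of 1 SE and a dashed line at 2-fold. The points of CXCL8 (4.23 and 1.32) and CXCL1 (3.48 and 1.68) are far apart between the lines, those of CXCL3 (2.85 and 2.74) lie within each other's error bars, and CXCL5 in OVCAR3 and CXCL6 in UWB1.289 were not tested.

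With DMSO alone, UWB1.289 had more of 3 members than OVCAR3. CXCL8 was higher in UWB1.289 by 4.81 ± 0.23 (SE) on the log2 scale, with an edgeR adjusted p of 1.39e-17, and CXCL1 by 1.74 ± 0.14 (SE), with an edgeR adjusted p of 2.42e-12. CXCL5 was at least 27.5-fold higher, against an OVCAR3 group at the floor (edgeR adjusted p of 6.54e-15). These 3 entered the fit and were called, CXCL5 and CXCL8 reaching the level of the filter in all 4 libraries of UWB1.289 and not of OVCAR3, in a comparison where 18.7% of 13366 genes were called higher and 19.7% lower in UWB1.289. CXCL2, CXCL3 and CXCL6 did not pass the filter. Mean log2 CPM of CXCL2 was lower in UWB1.289 by a difference of −1.21, with overlapping groups and an exact permutation p of 0.0857, and that of CXCL3 differed by 0.15 (exact permutation p = 0.80). CXCL6 had 1 to 5 counts in OVCAR3 and 0 in UWB1.289, groups that did not overlap (exact permutation p = 0.0286, the smallest possible) but that both lay near the floor.

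With olaparib the lines differed otherwise. CXCL1 reached 151 ± 34.7 CPM in OVCAR3 and 144 ± 32.3 CPM in UWB1.289 (SD, n = 4), overlapping groups with a log2 difference of −0.07 ± 0.15 (SE), an approximate 95% interval from −0.37 to 0.22 and an edgeR adjusted p of 0.677. CXCL3 also overlapped, at 9.89 ± 2.58 and 8.97 ± 2.85 CPM (SD, n = 4), with a log2 difference of −0.16 ± 0.24 (SE), an interval from −0.62 to 0.31 and an edgeR adjusted p of 0.562. CXCL8 stayed higher in UWB1.289, by 1.89 ± 0.14 (SE) on the log2 scale with an edgeR adjusted p of 6.52e-10, and so did CXCL5, by 5.65 ± 0.24 (SE) with an edgeR adjusted p of 3.82e-13. CXCL2 was lower in UWB1.289, with a log2 difference of −1.82 ± 0.31 (SE) and an edgeR adjusted p of 3.21e-05. CXCL6 was at least 8.18-fold higher in OVCAR3 (edgeR adjusted p of 1.2e-07). Of 13398 genes tested in this comparison, 18.6% were called higher and 18.3% lower in UWB1.289, and of the 6 members 2 were called higher and 2 lower. CXCL5 reached the level of the filter in all 4 libraries of UWB1.289 and in 1 of OVCAR3. CXCL6 reached it in 0 of UWB1.289 and all 4 of OVCAR3, so these counts of members are a description. These comparisons share their libraries with those of olaparib against DMSO.

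The order of levels over the 4 groups was therefore not the same from member to member. CXCL1 was lowest in OVCAR3 with DMSO (log2 CPM from 3.50 to 4.14), then UWB1.289 with DMSO (5.16 to 5.65), and the 2 olaparib groups overlapped at the top (6.83 to 7.62 in OVCAR3 and 6.94 to 7.58 in UWB1.289). CXCL3 showed 2 tiers, with the DMSO groups overlapping below and the olaparib groups overlapping above. CXCL8 and CXCL5 both ran from OVCAR3 with DMSO through OVCAR3 with olaparib and UWB1.289 with DMSO to UWB1.289 with olaparib. For CXCL8 the middle groups overlapped (4.14 to 4.81 and 4.63 to 5.24), and for CXCL5 no neighbours did. CXCL2 and CXCL6 were highest in OVCAR3 with olaparib. CXCL2 was lowest in UWB1.289 with DMSO, the 2 DMSO groups overlapping. For CXCL6 the 2 UWB1.289 groups overlapped at the floor, and UWB1.289 with olaparib also overlapped OVCAR3 with DMSO. Neighbours that differ in both line and treatment were not tested against each other.

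Genes annotated within 500 kb of the cluster were examined next, since the rule that chose the members did not use position. Of 33 such genes besides the members 19 are in the count table, and 5 were tested in each line. AREG, which encodes the EGF receptor ligand amphiregulin, lies beyond CXCL2 and was called higher in OVCAR3. It had 51 to 83 counts with DMSO and 362 to 446 after olaparib, with a log2 fold change of 2.45 ± 0.15 (SE) with an edgeR adjusted p of 4.12e-10. In UWB1.289 its log2 fold change of 0.76 ± 0.11 (SE) was below 2-fold (edgeR adjusted p of 8.69e-05), and the difference between the lines was −1.69 ± 0.20 (SE) with an edgeR adjusted p of 7.52e-07, so AREG shared this direction with CXCL1 and CXCL8. RASSF6, on the other side of CXCL8, passed 2-fold narrowly in OVCAR3, at 1.04 ± 0.31 (SE) with an edgeR adjusted p of 0.0169. It fell below 2-fold without DMSO replicate 2 (0.86), DMSO replicate 3 (0.95) or olaparib replicate 1 (0.92), and it was 0.72 ± 0.44 (SE) in UWB1.289 with an edgeR adjusted p of 0.354. EPGN, for epigen, was at 0.997 ± 0.29 (SE, log2) in OVCAR3 (edgeR adjusted p of 0.017), just under the limit. MTHFD2L and ANKRD17 had log2 fold changes between −0.06 and 0.19 in both lines, and EREG, for epiregulin, −0.16 in UWB1.289. The platelet chemokine genes inside the cluster were near 0, with 1 count for PPBP over all 16 libraries and at most 5 in any library for PF4. Between the lines with DMSO, AREG and EREG were higher in UWB1.289, by 3.43 ± 0.13 and 2.86 ± 0.50 (SE), and EPGN was lower, at −3.71 ± 0.55 (SE), with edgeR adjusted p-values of 5.46e-20, 7.17e-06 and 4.92e-07. The average count fell under 10 for EREG without UWB1.289 DMSO replicate 4 (8.69) and for EPGN without OVCAR3 DMSO replicate 1 (9.11). With olaparib AREG (1.73 ± 0.12, SE) and EREG (1.14 ± 0.41, SE) were higher and RASSF6 (−1.06 ± 0.34, SE) lower in UWB1.289, and EPGN was at least 14.8-fold higher in OVCAR3, with edgeR adjusted p-values of 3.06e-10, 0.0179, 0.00972 and 2.43e-08. EREG was 0.79 without OVCAR3 olaparib replicate 3, and RASSF6 was −0.96 without OVCAR3 olaparib replicate 1 and −0.76 without UWB1.289 olaparib replicate 2.

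**Figure D4:**
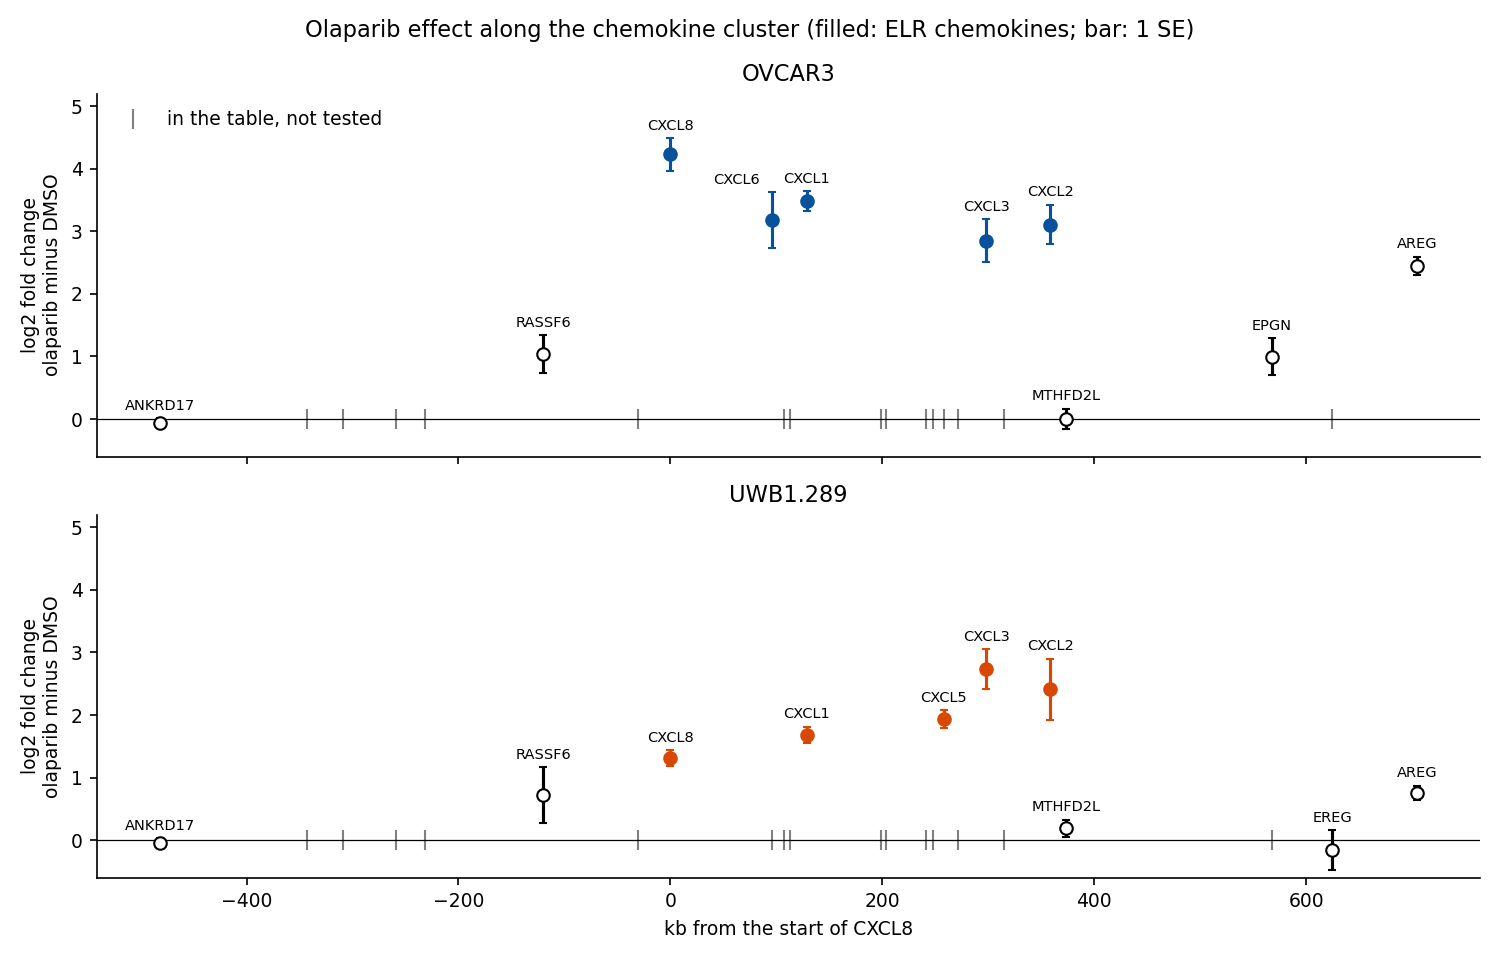
Log2 fold change (olaparib minus DMSO, bars of 1 SE) of genes tested in and around the cluster, by distance in kb from the start of CXCL8, in OVCAR3 and UWB1.289, with the chemokines as filled points and genes of the table that were not tested as ticks at 0. Outside the members, AREG at 2.45 in OVCAR3 is the highest point, and MTHFD2L and ANKRD17 sit near 0 in both lines.

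The receptors were all but absent from these cells. CXCR1 had 0 counts in all 16 libraries, and CXCR2 had 1 count in each of 2 UWB1.289 olaparib libraries and 0 elsewhere. ACKR1, the erythrocyte receptor that binds chemokines without signaling, had 0 counts. At this depth 3 counts per library correspond to 0.442 to 0.491 CPM, the means of the groups, so lower levels were not detectable.

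Cytokines that induce these chemokines rose with them. In OVCAR3 2 of 13 listed could be tested and both were called higher, TNF having passed the filter through the olaparib libraries, so the count is a description. Over all genes tested 2.9% were called higher. TNF, for tumor necrosis factor, had 2 to 7 counts with DMSO and 48 to 67 after olaparib, with a log2 fold change of 3.79 ± 0.33 (SE) with an edgeR adjusted p of 4.37e-08, and LTB, for lymphotoxin beta, rose by 3.13 ± 0.20 (SE) with an edgeR adjusted p of 5.78e-10. In UWB1.289 4 of 5 tested (80.0%, against 1.93% of all genes) were called higher, all 4 at the level of the filter in every DMSO library. TNF rose by 1.73, IL1B by 1.42, LTB by 1.32 and IL1A by 1.07 on the log2 scale, with edgeR adjusted p-values of 1.71e-07, 0.000714, 9.93e-09 and 0.000402. IL1A fell below 2-fold without DMSO replicate 4 (0.99), olaparib replicate 2 (0.99) or olaparib replicate 3 (0.92). The effect was smaller in UWB1.289 for TNF, by −2.06 ± 0.38 (SE), and for LTB, by −1.81 ± 0.23 (SE), with edgeR adjusted p-values of 0.000543 and 3.67e-06, the same direction as for CXCL1 and CXCL8. With DMSO all 4 tested were higher in UWB1.289, as were 18.7% of all genes, and IL1A, IL1B and TNF passed the filter through that line. IL1A was at least 24.8-fold and IL1B at least 7.35-fold higher against OVCAR3 groups at the floor, LTB was higher by 5.54 ± 0.17 (SE) and TNF by 3.39 ± 0.37 (SE) on the log2 scale. The average count of IL1B in that comparison, 11.4, fell to between 9.26 and 9.9 without UWB1.289 DMSO replicates 2, 3 or 4. With olaparib IL1A was at least 55.3-fold, IL1B at least 20.9-fold, LTB 3.73 ± 0.11 and TNF 1.32 ± 0.16 (log2, SE) higher. That was all 4 tested, against 18.6% of all genes, and IL1A and IL1B passed the filter through UWB1.289. The largest edgeR adjusted p of these 8 values was 4.42e-07.

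Fewer of their receptors and adaptors were called. In OVCAR3 1 of 18 tested (5.56%, against 2.9% of all genes) was called higher, TNFRSF1B, a TNF receptor, at 1.93 ± 0.27 (SE) with an edgeR adjusted p of 2.43e-05. The median log2 fold change was 0.25 against −0.01 over all genes tested. In UWB1.289 2 of 20 were called higher with a median of 0.07 against 0.00. They were IL1RN, the interleukin-1 receptor antagonist, at 2.28 ± 0.23 (SE) with an edgeR adjusted p of 2.57e-07, and IRAK3, an inhibitory kinase of the same pathway, at 1.23 ± 0.38 (SE) with an edgeR adjusted p of 0.0473, which was not called with DESeq2 (adjusted p of 0.102) or without DMSO replicates 1 or 4 or olaparib replicates 2, 3 or 4, where it ran from 1.0018 to 1.199. IRAK3 was below the level of the filter in at least 1 DMSO library, so the count of 2 is a description. The effect was larger in UWB1.289 for IL1RN, by 3.32 ± 0.79 (SE; edgeR adjusted p of 0.00712). IL1RN was scarce in OVCAR3, with 0 to 10 counts with DMSO and 0 to 6 with olaparib. The effect was also larger for the adaptor TRAF6, by 1.012 ± 0.28 (SE; edgeR adjusted p of 0.0201), which fell below 2-fold with DESeq2 and, at 0.900 to 0.9961, without OVCAR3 DMSO replicate 4, OVCAR3 olaparib replicates 2 or 4, UWB1.289 DMSO replicate 1 or UWB1.289 olaparib replicates 1 or 4. Between the lines with DMSO 3 of 19 (15.8%) were called higher in UWB1.289, namely IL1RN, IRAK1 and TAB3. The 2 (10.5%) called lower were IL1R1, the signaling receptor of interleukin-1, at −4.77 ± 0.16 (SE), and TRAF6. Of all genes tested 18.7% were called higher and 19.7% lower. With olaparib 5 of 21 (23.8%) were called higher and 3 (14.3%) lower, near the 18.6% and 18.3% of all genes. Those higher included IL1RN at 5.63 and IRAK3 at 2.71, against 0 to 6 and 1 to 5 counts in OVCAR3. The average count of IRAK3 fell from 10.3 to between 8.83 and 9.09 without UWB1.289 olaparib replicates 2, 3 or 4. Those lower were TNFRSF1B at −4.62, IL1R1 at −4.43 and IL17RC at −2.02 on the log2 scale.

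Among NF-kB subunits and inhibitors 6 of 14 tested (42.9%) were called higher in OVCAR3 and 3 of 14 (21.4%) in UWB1.289, none lower. Of all genes tested 2.9% and 1.93% were called higher. Medians were 0.76 and 0.62 on the log2 scale against −0.01 and 0.00 over all genes tested. TNFAIP3, which encodes the feedback inhibitor A20, had the largest change in both lines. It went from 31 to 59 counts with DMSO to 288 to 411 after olaparib in OVCAR3, with a log2 fold change of 2.67 ± 0.15 (SE) with an edgeR adjusted p of 1.68e-10, and rose by 1.97 ± 0.12 (SE) in UWB1.289 with an edgeR adjusted p of 6.34e-11. NFKBIZ rose by 1.26 and 1.90 and RELB by 1.496 and 1.04 in OVCAR3 and UWB1.289, all with edgeR adjusted p-values of at most 1.69e-06, and RELB in UWB1.289 was 0.99 without DMSO replicate 3. NFKBIE (1.80), NFKB2 (1.24) and NFKBIA (1.15) were called in OVCAR3 alone, and their values in UWB1.289 were 0.66, 0.46 and 0.98. The difference between the lines was called for NFKBIE, at −1.13 ± 0.32 (SE; edgeR adjusted p of 0.0229), and it was −0.99 without UWB1.289 DMSO replicate 3. RELA, the subunit most often linked to these promoters, had log2 fold changes of 0.28 and 0.22, below 2-fold in both lines. Between the lines with DMSO TNFAIP3 and NFKBIE were higher and NFKBIB lower in UWB1.289, and with olaparib NFKB2, NFKBIB, CHUK and NFKBIA were lower there, at −1.47 to −1.05 on the log2 scale. Of the 14 tested that was 14.3% higher and 7.14% lower with DMSO, against 18.7% and 19.7% of all genes. With olaparib it was 0 higher and 28.6% lower, against 18.6% and 18.3%. CHUK did not pass 2-fold without OVCAR3 olaparib replicate 1 (−0.9961) or UWB1.289 olaparib replicate 1 (−0.98).

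Of the AP-1 and C/EBP factors 2 of 12 tested (16.7%) were called higher and 1 (8.33%) lower in OVCAR3, against 2.9% and 2.33% of all genes. FOSL1, 1 of the 2, passed the filter through the olaparib libraries, so this count is a description. In UWB1.289 1 of 11 (9.09%) was called higher, against 1.93%. FOSL1 had 0 to 3 counts with DMSO and 20 to 33 with olaparib in OVCAR3, at least 7.79-fold higher (edgeR adjusted p of 1.08e-05), and it was at 0.56 ± 0.14 (SE) in UWB1.289, where it had 127 to 190 counts with DMSO. ATF3, a stress-induced factor, rose by 1.294 ± 0.17 (SE) in OVCAR3 and 1.88 ± 0.17 (SE) in UWB1.289, with edgeR adjusted p-values of 1.12e-05 and 4.66e-08. FOS fell by 1.16 in OVCAR3 (edgeR adjusted p of 7.54e-05), and its log2 fold change was −0.9965 without olaparib replicate 4. With DMSO FOSL1 was at least 51.5-fold and JUNB 1.10 (log2) higher and FOS and CEBPA lower in UWB1.289, and with olaparib FOSL1 was higher (3.26 ± 0.18, SE) and FOS and CEBPA lower. Of the 12 tested that was 16.7% higher and 16.7% lower with DMSO, against 18.7% and 19.7% of all genes. With olaparib it was 8.33% higher and 16.7% lower, against 18.6% and 18.3%. The effect on FOSL1 differed between the lines by −3.84 ± 0.55 (SE; edgeR adjusted p of 1.61e-05), against a group at the floor.

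Of 8 regulators of chemokine mRNA decay, which act on the AU-rich and stem-loop elements of the 3′ UTR, ZC3H12A alone was called in either line. That was 12.5% of those tested in OVCAR3 and 14.3% in UWB1.289, against 2.9% and 1.93% of all genes. ZC3H12A encodes Regnase-1, an RNase that degrades transcripts of inflammatory genes. It rose by 2.38 ± 0.13 (SE) in OVCAR3 and 1.55 ± 0.15 (SE) in UWB1.289, with edgeR adjusted p-values of 1.22e-10 and 8.07e-08. ZFP36, which encodes tristetraprolin, was at 0.47 ± 0.17 (SE) in OVCAR3 (edgeR adjusted p of 0.0553) and had at most 19 counts in UWB1.289. ZFP36 was lower and ZFP36L1 higher in UWB1.289 than in OVCAR3, at −2.81 and 1.17 with DMSO and at −4.05 and 1.42 with olaparib on the log2 scale. Each was 12.5% of the 8 tested. Of all genes 18.7% were called higher and 19.7% lower with DMSO, and 18.6% and 18.3% with olaparib.

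Other inflammatory products, most of them secreted, were higher with olaparib in both lines. Of those tested 6 of 7 (85.7%) were called higher in OVCAR3 and 6 of 6 in UWB1.289, against 2.9% and 1.93% of all genes. Of the 16 listed, 9 in OVCAR3 and 10 in UWB1.289 were too low to be tested, and CCL20, PTX3 and SAA1 in OVCAR3 and CCL2 and SAA1 in UWB1.289 were below the level of the filter in at least 1 DMSO library, so these counts are a description. SAA1, an acute-phase protein, was at least 6.95-fold higher in OVCAR3 with olaparib, from a group at the floor, with an average of 11.0 counts that fell below the minimum without olaparib replicates 1, 2 or 4. It rose by 2.79 ± 0.49 (SE) in UWB1.289 (edgeR adjusted p of 0.000515). PTX3, for pentraxin 3, rose by 4.13 and 1.43, LCN2, for lipocalin 2, by 2.29 and 1.004, C3, for complement component 3, by 1.64 and 1.08 and ICAM1, an adhesion molecule for neutrophils, by 2.19 and 1.09 in OVCAR3 and UWB1.289. All these values had edgeR adjusted p-values of at most 2.99e-05, and C3 in UWB1.289 was 0.92 without DMSO replicate 3 and 0.96 without olaparib replicate 1. CCL20 rose by 3.40 ± 0.51 (SE) in OVCAR3 (edgeR adjusted p of 5.21e-05), and CCL2, which attracts monocytes, by 1.41 ± 0.35 (SE) in UWB1.289 (edgeR adjusted p of 0.0118), with overlapping groups. The effect was smaller in UWB1.289 for PTX3 (−2.70 ± 0.25, SE), LCN2 (−1.28 ± 0.18, SE) and ICAM1 (−1.10 ± 0.23, SE), with edgeR adjusted p-values of 8.49e-09, 9.56e-06 and 0.00211. With DMSO LCN2 (4.30), ICAM1 (4.16) and PTX3 (3.78) were higher in UWB1.289, and with olaparib ICAM1, CCL2, LCN2 and PTX3 were higher and C3 and LIF lower. LIF (−1.18, edgeR adjusted p of 0.0693) had overlapping groups and was not called with DESeq2 or without replicates 1 or 3 of either olaparib group (−1.08 to −0.76).

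Of the 11 other CXC chemokines, CXCL16, the ligand of CXCR6, was the 1 tested in OVCAR3 and rose by 1.16 ± 0.15 (SE; edgeR adjusted p of 6.69e-06). In UWB1.289 the interferon-induced CXCL10, with 1 to 3 counts with DMSO and 86 to 110 with olaparib, was at least 36.4-fold higher (edgeR adjusted p of 4.73e-12), and CXCL11 rose by 3.54 ± 0.40 (SE; edgeR adjusted p of 1.36e-06). CXCL10 and CXCL11 lack the ELR motif and attract lymphocytes. In OVCAR3 CXCL10 had 0 or 1 counts with DMSO and 3 to 9 with olaparib. CXCL16 was higher in UWB1.289 with DMSO (2.59, log2), and CXCL10 (4.19), CXCL11 (4.43) and CXCL16 (2.03) were higher there with olaparib. These were the 1 tested with DMSO and the 3 tested with olaparib, where 18.7% and 18.6% of all genes were called higher. CXCL10 and CXCL11 passed the filter through UWB1.289.

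**Figure D5:**
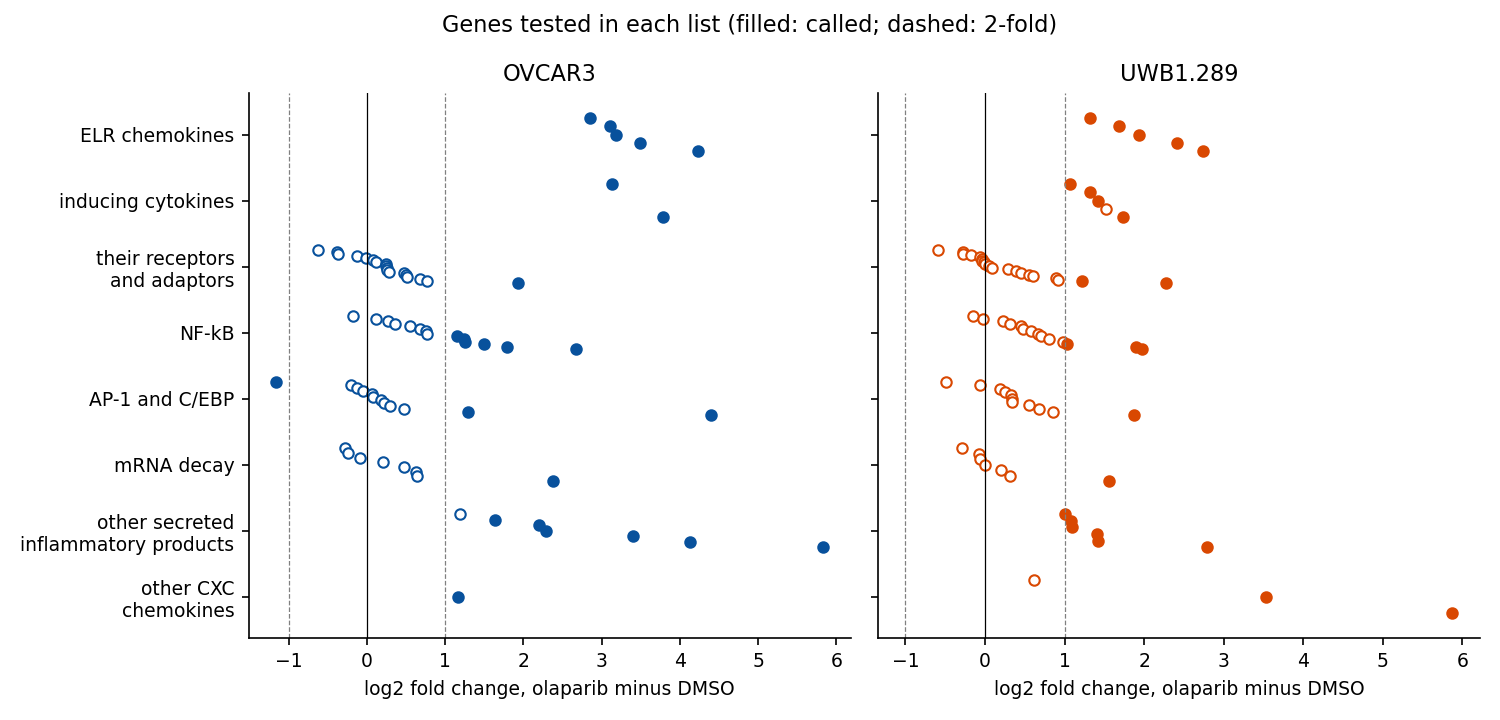
Log2 fold change (olaparib minus DMSO) of each tested gene of 8 groups, the ELR chemokines first, in OVCAR3 and UWB1.289, with filled points for genes called and dashed lines at 2-fold. The values of FOSL1 and SAA1 in OVCAR3 and of CXCL10 in UWB1.289 are fitted against groups at the floor. Points of the chemokines, inducing cytokines and other inflammatory products (labelled secreted, with ICAM1 among them) lie mostly right of the dashed line. Those of receptors, AP-1 and decay factors lie mostly around 0.

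Other genes with the kB sequence in their promoter were examined as well. Apart from the 6 members, 147 gene symbols have GGAATTTCC in their RefSeq promoter, 97 of them in the count table. In OVCAR3 58 were tested, of which 8 (13.8%, against 2.9% of all genes tested) were called higher and 1 lower, with a median log2 fold change of 0.08. The 8 were COL7A1, DUSP6, ICAM1, MAP3K8, NFKBIA, NFKBIZ, OAS3 and SCARF2. In UWB1.289 60 were tested and 7 (11.7%, against 1.93%) were called higher, with a median of 0.12, namely CXCL10, CXCL11, ICAM1, MSRB3, NFKBIZ, OAS3 and TNFRSF9. ICAM1, NFKBIZ and OAS3 were in both. COL7A1 and SCARF2 in OVCAR3 and CXCL10, CXCL11 and TNFRSF9 in UWB1.289 were below the level of the filter in at least 1 DMSO library. These names were taken after their values were seen, and the shares were not tested against those of all genes.

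The genes whose level ran most like each called member were found by Pearson r of log2 CPM over the 8 libraries of a line, each line on its own, which is a description because all 8 share the treatment. In OVCAR3 (12952 genes compared) CXCL8 was most like DUSP5 (r = 0.9968), HLA-B and MAP1B, and CXCL1 most like EPB41L2 (r = 0.9954), DUSP5 and DUSP6. CXCL2 was most like HLA-B, CCNA1 and TNFAIP2, CXCL3 most like NT5C2, C4orf19 and CDC42EP3, and CXCL6 most like LY6K, TNF and DUSP4. In UWB1.289 (12704 genes compared) CXCL1 was most like HLA-C (r = 0.9937), CXCL8 (r = 0.9894) and LGALS9, and CXCL8 most like CXCL1, HLA-C and CSF1. CXCL2 was most like PACC1, CCNA1 and GATA2, CXCL3 most like BCAR1, OGFR and HSF1, and CXCL5 most like APOL1 (r = 0.9946), B3GNT7 and IFITM3. Between members r ran from 0.9139 (CXCL3 with CXCL6) to 0.984 (CXCL1 with CXCL8) in OVCAR3 and from 0.7686 (CXCL2 with CXCL3) to 0.9894 (CXCL1 with CXCL8) in UWB1.289.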

How the data were processed

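Serous ovarian carcinoma cell lines were profiled by QuantSeq 3′ mRNA sequencing in 16 libraries. The authors trimmed single-end reads with BBDuk, mapped them to hg38 with STAR 2.7.9a and counted reads per gene with featureCounts 2.0.0 and GENCODE release 38, and the deposited values are raw counts. How strand and multi-mapped reads were handled is not given in the sources used here.

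From the table of 59428 genes, the 12748 to 14243 that passed the filter on low counts in a comparison were fitted in R 4.3.3 with edgeR 4.0.16 (TMM, filterByExpr, quasi-likelihood test with p-values adjusted by Benjamini-Hochberg), each comparison on its own 8 libraries and the interaction on 16. Calls needed an adjusted p below 0.1, a change beyond 2-fold and an average count above 10. SE is an approximate value for the log2 fold change, derived from its size and the test statistic, and the intervals rest on it. For scarce genes it can lie well below the SE of DESeq2. It was 0.377 against 1.525 for CXCL6 in the interaction, and 0.442 against 1.025 for CXCL5 between the lines with DMSO. The values were close for CXCL1 in OVCAR3 (0.159 and 0.165), and DESeq2 gave the lower one for CXCL2 in the interaction (0.687 and 0.64). Alternatives were DESeq2 1.42.0, its size factors, no filter, an average above 50, no fold limit, an adjusted p below 0.05, all 16 libraries, a replicate block and leaving out each library. Tests recovered 200 of 200 genes changed 4-fold in the simulated olaparib comparison of OVCAR3 (13031 genes). The changed genes all had a mean above 50 counts, and 1 dispersion was used for every gene. The simulation therefore does not cover scarcer members, such as CXCL3 and CXCL6 with averages of 37.2 and 14.7 counts in OVCAR3. No pair of libraries of a group was identical.

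The text names the 6 members, the called genes of each list (at most 5 per list and comparison, by size of change), CXCR1 and CXCR2, called genome neighbours and the 3 genes most like each called member. Members and lists were chosen with earlier results of these data known, and NFKBIA, RELA, ZFP36, EPGN, CXCL10 in OVCAR3 and other genes below the limits were named after their values were seen. Coordinates are those of GENCODE release 44, and promoters those of RefSeq.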

Additional observations from a re-analysis of the deposited data

Results flagged for a closer look

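The olaparib effect differed between the lines for 2 chemokines and for 10 other genes of the lists and the neighbourhood, by the interaction test of edgeR over 16 libraries. Of all 14243 genes tested 1.66% were called with a lower and 2.0% with a higher effect in UWB1.289. Lower effects were called for 2 of 6 members, 2 of 5 inducing cytokines and 3 of 8 other inflammatory products. They were also called for 1 of 14 NF-kB genes and 1 of 12 AP-1 and C/EBP factors. Higher effects were called for 2 of 21 receptors and adaptors. None was called among 8 decay regulators or 3 other CXC chemokines. On the log2 scale, as the change in UWB1.289 minus the change in OVCAR3, the values were −2.91 for CXCL8, −1.80 for CXCL1, −3.84 for FOSL1 (against a group at the floor, so its size depends on the prior count), −2.70 for PTX3, −2.06 for TNF, −1.81 for LTB, −1.69 for AREG, −1.28 for LCN2, −1.13 for NFKBIE, −1.10 for ICAM1, 1.012 for TRAF6 and 3.32 for IL1RN (scarce in OVCAR3).

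Among 180 gene and group levels screened, 10 had a library far from the other 3 of its group, and chance gives about 1 in 20. None of the 10 was a level of a chemokine member. In log2 CPM they were TNFRSF1B in OVCAR3 DMSO replicate 2 (2.38, the lowest of the others 1.13), NFKBIB in the same library (6.26, the others 6.15 to 6.16), PTX3 in OVCAR3 DMSO replicate 3 (1.39, the others 0.70 to 0.80), JUNB in the same library (5.29, the others 5.51 to 5.52) and CEBPA in OVCAR3 olaparib replicate 4 (1.40, the others 2.01 to 2.12). In UWB1.289 they were RELB in DMSO replicate 3 (4.51, the others 4.69 to 4.72), TRAF6 in DMSO replicate 1 (1.79, the others 2.25 to 2.26), ZFP36 in the same library (1.66, the others 0.14 to 0.39), CHUK in DMSO replicate 2 (3.95, the others 3.19 to 3.25) and FOS in olaparib replicate 1 (1.19, the others 1.88 to 2.0).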

How the results depend on the processing

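The calls of the members in both olaparib comparisons kept their direction under every alternative, and leaving out each library gave 5 called members in each line. With an average count above 50 the called members were 3 in OVCAR3 and 3 in UWB1.289, since scarce ones fall out, and 1 member in place of 2 was lower in UWB1.289 with olaparib. With all 16 libraries in the fit that count was 1 as well, since CXCL6 then averaged 7.42 counts, CXCL6 was not called in OVCAR3 while CXCL5 was (log2 fold change 3.33), and 1 member, CXCL2 (−1.10), was called lower in UWB1.289 with DMSO in place of 0. The difference between the lines was called for 2 to 3 members when a library was left out. Values near 0 changed sign: the difference between the lines with olaparib ran from −0.23 to 0.077 for CXCL1 and from −0.32 to 0.018 for CXCL3, and the difference of the effects from −0.68 to 0.15 for CXCL3 and from −0.69 to 0.075 for CXCL6.

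Over all genes, an average count above 50 left 165 higher and 120 lower in OVCAR3, 128 and 13 in UWB1.289, 1637 and 1608 between the lines with DMSO, 1584 and 1494 with olaparib, and 155 and 142 for the difference of effects. Without a fold limit these were 1999 and 2067, 983 and 777, 5246 and 5251, 5059 and 4977, and 696 and 825. Genes called lower in UWB1.289 numbered 33 to 56 when a library was left out, and without a filter 1 receptor or adaptor gene, in place of 2, differed in effect. The replicate block changed no call of a member. With the block 377 genes were higher and 311 lower in OVCAR3 and 254 and 40 in UWB1.289. Samples of 1 number had correlations from 0.0227 to 0.0931 in OVCAR3 and from 0.0815 to 0.123 in UWB1.289 (13234 genes), so the numbers were not taken as pairs, though 3 and 4 of the 4 numbers correlated best with their own. At 3 counts per library, levels under 0.442 to 0.491 CPM were not detectable, which limits CXCL5 in OVCAR3 and CXCL6 in UWB1.289.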
